A study of Mus musculus with 11 samples.

Results

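Alveolar macrophages lavaged on the last day of a CpG course were compared with alveolar macrophages of mice that had received PBS over the same days. The comparison takes 7 of the 11 arrays of the series and every gene that the array names. All animals were female C57BL/6J, purchased when 6 weeks old, and each was given 5 injections over 10 days. The control group (n = 4) received PBS, the acute group (n = 3) received CpG 1826, a synthetic oligonucleotide ligand of the DNA sensor Tlr9, and both were lavaged on day 10. A further 4 arrays, called resolution, came from mice given the same CpG course and lavaged on day 30. These 4 arrays share in the estimate of the spread between arrays, and their levels are given as a description. The labels name the acute group as a model of macrophage activation syndrome (MAS), give 11 mice for 11 arrays, and call the arrays biological replicates. The p-values measure the spread between these arrays. Macrophages were purified by adherence alone, so other cells that adhere can be in the sample. In such bulk samples more cells of a kind and more RNA per cell cannot be told apart.

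Alveolar macrophages are the resident phagocytes of the air spaces. They clear particles and spent surfactant, whose lipids they take up and break down in lysosomes. Macrophage activation syndrome is a hyperinflammatory state in which interferon-gamma from lymphocytes acts on macrophages. Signalling from the interferon-gamma receptor induces the transcription factor IRF1, chemokines such as Cxcl9, guanylate-binding GTPases, and the genes that cut peptides and load them on MHC class I.

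All values are log2(intensity + 1), and a difference is the acute mean minus the control mean on this scale. The arrays were alike in signal, with a median intensity between 51.4 and 57.0 and an array background between 6.12 and 6.24 on the log2 scale. Background was taken as the 90th percentile of 23 probe sets that match no mouse sequence. Of 12143 genes that could be tested, 29 passed limma's moderated test with a Benjamini-Hochberg adjusted p under 0.05, which is 0.239%. They were 23 higher genes (0.189%) and 6 lower genes (0.0494%), and for all 29 the acute and control arrays did not overlap, as was the case for 10.1% of all genes tested. After quantile normalization the split was 29 higher and 3 lower. The median difference over all genes was -0.00, and 49.9% of genes had a positive one. Another 30 genes, 20 higher and 10 lower, had an adjusted p between 0.05 and 0.10. Leaving out 1 array moved the count of genes past the threshold by over 1.5 times for 4 arrays. It was 5 without acute replicate 2, 9 without acute replicate 3, 13 without control replicate 1 and 18 without control replicate 2. With the 7 arrays of day 10 alone it was 16, of which 13 were among the 29.

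Control replicate 4 stood apart from the other 6 arrays of day 10. On the first principal component, with 26.8% of the variance, it was at 36.2 and the others between -12.3 and 1.89. The second component, with 24.4%, placed the acute arrays between 6.56 and 20.9, control replicates 1 to 3 between -22.7 and -5.45 and control replicate 4 at 5.77. Without control replicate 4 the count of genes past the threshold was again 29, of which 22 were the same genes. The 38 listed identity genes of resident alveolar macrophages on the array had a high mean level throughout. It was 12.97 to 13.11 in control and 12.96 to 13.05 in acute. Of the 38 genes 3 were below background on all 7 arrays. Siglecf, a sialic acid receptor of these cells, read 15.09, 15.02, 15.07 and 14.51 on the control arrays and 14.98, 14.93 and 14.86 on the acute arrays. The labelled cell type was thus found on all 7 arrays, with Siglecf and the mean of the list at like levels in both groups.

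**Figure D1:**
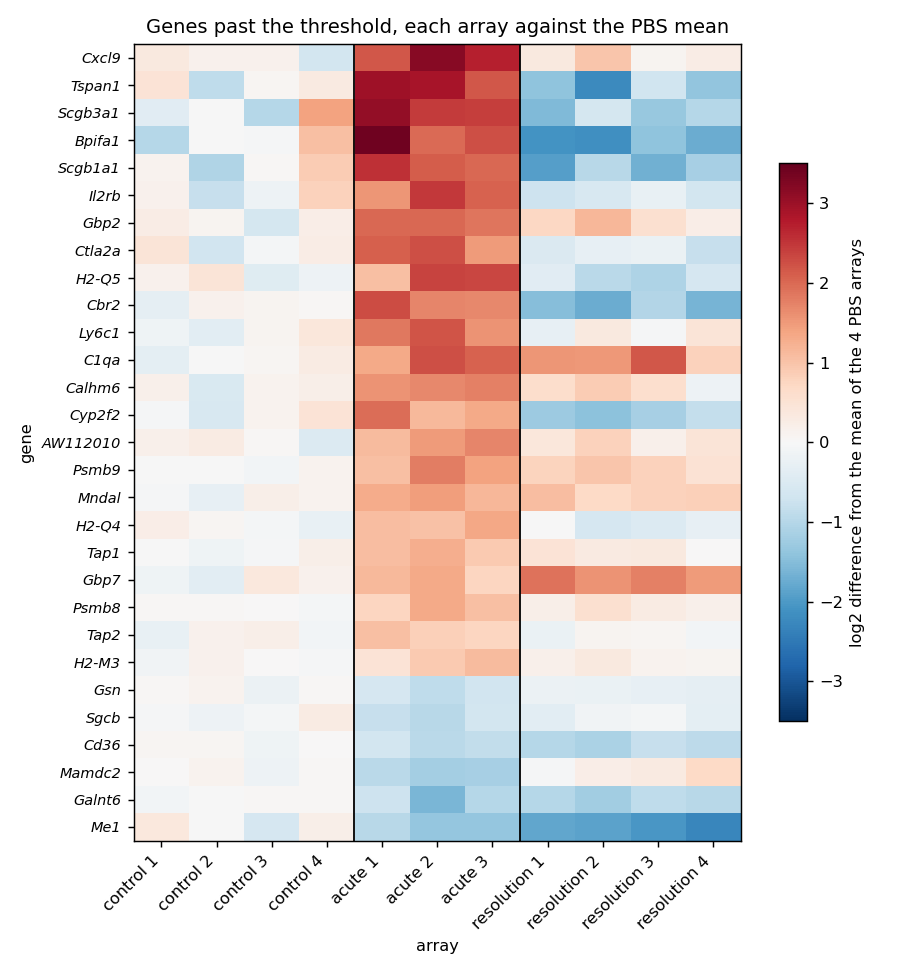
Each cell is the log2 difference of 1 array (columns: 4 control, 3 acute and 4 resolution arrays) from the mean of the 4 control arrays, for the 29 genes past the threshold (rows, ordered by difference). The 23 upper rows are red on the 3 acute arrays and the 6 lower rows are blue there, while the resolution arrays of Gbp7 are redder than its acute arrays and those of Bpifa1 are blue.

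A few interferon-inducible genes were higher at the end of the CpG course. The chemokine Cxcl9, the GTPases Gbp2 and Gbp7, the interferon-inducible nuclear protein gene Mndal, the channel gene Calhm6 and the transcript AW112010 rose. Of these Cxcl9, Gbp2 and Gbp7 are in the interferon-gamma lists. The GTPase list had 10 tested members, of which 2 rose, 0 fell and 9 had a positive difference, with a median of 0.84. The list of chemokines and enzymes had 13 tested members, of which 1 rose and 0 fell, with a median of 0.36. None of the 14 tested genes of the interferon-gamma receptor and its signalling passed, although 12 of them were on the positive side, with a median of 0.30.

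Promoters are shown for those interferon-inducible genes past the threshold that hold a motif that the IRF transcription factors bind. They were picked because they hold it. Each is the 150 bases before the start of the RefSeq transcript (GRCm38.p6), 5′ to 3′ on the gene's strand, with the motif in capitals. The motif searched, on both strands, was a pair of GAAA runs with any 2 bases between them, over the 300 bases from 250 before to 50 after the start.
Gbp7, chr3:142530186-142530335, plus strand: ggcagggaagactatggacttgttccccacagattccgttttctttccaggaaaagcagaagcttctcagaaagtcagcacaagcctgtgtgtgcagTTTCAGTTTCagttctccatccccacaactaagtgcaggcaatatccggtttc
Gbp2, chr3:142620513-142620662, plus strand: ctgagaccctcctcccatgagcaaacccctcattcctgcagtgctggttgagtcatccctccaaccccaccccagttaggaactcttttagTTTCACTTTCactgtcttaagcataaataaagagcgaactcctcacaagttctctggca
Mndal, chr1:173880188-173880337, minus strand: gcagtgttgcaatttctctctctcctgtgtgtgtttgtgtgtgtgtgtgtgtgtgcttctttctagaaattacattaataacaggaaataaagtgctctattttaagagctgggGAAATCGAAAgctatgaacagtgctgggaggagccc
Calhm6, chr10:34127973-34128122, minus strand: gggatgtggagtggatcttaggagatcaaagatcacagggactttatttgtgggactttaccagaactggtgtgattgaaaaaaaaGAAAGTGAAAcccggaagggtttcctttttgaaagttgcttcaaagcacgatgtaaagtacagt

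The IRF motif began 53 bases before the start of Gbp7, 59 before that of Gbp2, 64 before that of Calhm6 and 36 before that of Mndal. RefSeq lists 2 promoters for Mndal, and the one not shown also has the motif. Of the 23 higher genes 18 had a promoter in the table, and 4 of these 18 held the motif. Among 9901 tested genes with a promoter 3.75% held it. The windows of Cxcl9, AW112010, Psmb9, Psmb8, Tap1, H2-Q4 and H2-M3 did not. That says only that these letters do not occur in those 300 bases. It was in 0 of the promoters of the 5 lower genes that had one in the table.

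Cxcl9, which draws CXCR3-bearing T and NK cells, read 5.79, 5.61, 5.59 and 4.80 on the control arrays, none above background, and 7.62, 8.63 and 8.17 on the acute arrays. The lowest acute array was 1.83 above the highest control array. The difference was 2.69 ± 0.28 (SE, adjusted p = 0.00291), at least 3.94-fold.

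Gbp2, a GTPase that assembles on pathogen vacuoles, read 6.12, 5.96, 5.25 and 6.09 in control and 7.86, 7.86 and 7.73 in acute. Its 3 acute arrays lay within a narrow band and clear of all controls. The difference was 1.96 ± 0.23 (SE, adjusted p = 0.00403), at least 3.16-fold.

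Gbp7, a guanylate-binding protein as well, read 8.43, 8.20, 8.93 and 8.72 in control and 9.70, 9.88 and 9.31 in acute. The groups did not overlap, and the gap between them was 0.38. It rose by 1.06 ± 0.19 (SE, adjusted p = 0.0458), 2.09-fold. On day 30 the 4 resolution arrays of Gbp7, at 10.05 to 10.47, were above every acute array.

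Mndal, of the interferon-inducible p200 family of DNA-binding proteins, read 10.71, 10.46, 10.95 and 10.88 in control and 12.05, 12.21 and 11.91 in acute. The lowest acute array stood 0.96 above the highest control. It rose by 1.31 ± 0.15 (SE, adjusted p = 0.00372), 2.47-fold.

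Calhm6, a channel protein of activated macrophages, read 6.54, 5.83, 6.48 and 6.57 in control, close to background, and 7.93, 8.03 and 8.11 in acute. The acute arrays were tightly grouped. The difference was 1.67 ± 0.24 (SE, adjusted p = 0.0110), at least 3.17-fold.

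AW112010, a transcript induced in macrophages by inflammatory stimuli, read 11.93, 12.03, 11.80 and 11.27 in control and 12.86, 13.25 and 13.45 in acute. Again no acute array fell in the range of the controls. It rose by 1.43 ± 0.21 (SE, adjusted p = 0.0128), 2.70-fold.

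The relatives of these genes mostly shared their direction without passing. Gvin1, a very large interferon-inducible GTPase, had a difference of 1.09 ± 0.20 (SE, adjusted p = 0.0515). Gbp3, Gbp8 and Gbp4 differed by 1.28, 0.73 and 0.64, with adjusted p between 0.192 and 0.341. Gbp9 alone of the tested GTPases was on the negative side, at -0.24 (95% interval -0.64 to 0.16). Guanylate-binding proteins are near-identical copies in part, so a probe set can read more than 1 of them.

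Of the related chemokines, Cxcl10 read at most 5.83 on the 7 arrays, below background throughout, and Cxcl11 was too dim to be tested. Cxcl16, a membrane-bound chemokine of macrophages, read at most 13.56 in control and at least 13.86 in acute, with adjusted p = 0.108. Fcgr1, the high-affinity IgG receptor, differed by 0.73 ± 0.27 (SE, adjusted p = 0.440). None of these 3 passed the test.

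Of the transcription factors between receptor and target none passed. Irf1, a transcription factor that interferon-gamma induces, read 7.26, 8.04, 7.62 and 7.46 in control and 8.93, 8.94 and 8.27 in acute, a difference of 1.12 ± 0.23 (SE, adjusted p = 0.0941). Irf9, the DNA-binding part of the type I interferon complex, differed by 0.72 ± 0.14 (SE, adjusted p = 0.0524), and Irf5 by 0.32 (adjusted p = 0.495). The acute arrays of all 3 lay above their controls, though those of Irf5 nearly touched them.

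The receptor chain Ifngr1 differed by 0.13, with a 95% interval of -0.22 to 0.49. Ifng itself was below background on all 7 arrays, and the feedback inhibitor Socs1 was too dim to be tested.

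Type I interferon genes were on the positive side in 23 of 24 tested cases, with a median of 0.36 and 0 past the threshold. The 4 with the smallest p were the p200 family genes Ifi211 (0.75 ± 0.17, SE, adjusted p = 0.115) and Ifi204 (0.67, adjusted p = 0.238), the poly-ADP-ribosyl transferase Parp14 (0.52, adjusted p = 0.311) and the restriction factor Trim30a (0.51, adjusted p = 0.358). For 5 of the 24 all acute arrays lay above all controls, against 4.71% of all genes tested.

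Cxcl9, Gbp2 and Mndal were past the threshold with each array left out in turn. Calhm6 and AW112010 were not past it without acute replicate 2 or 3, and Gbp7 was past it in only 1 of the 11 fits with an array left out, that without control replicate 3. The adjusted p of these lost calls was 0.0622 to 0.240.

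**Figure D2:**
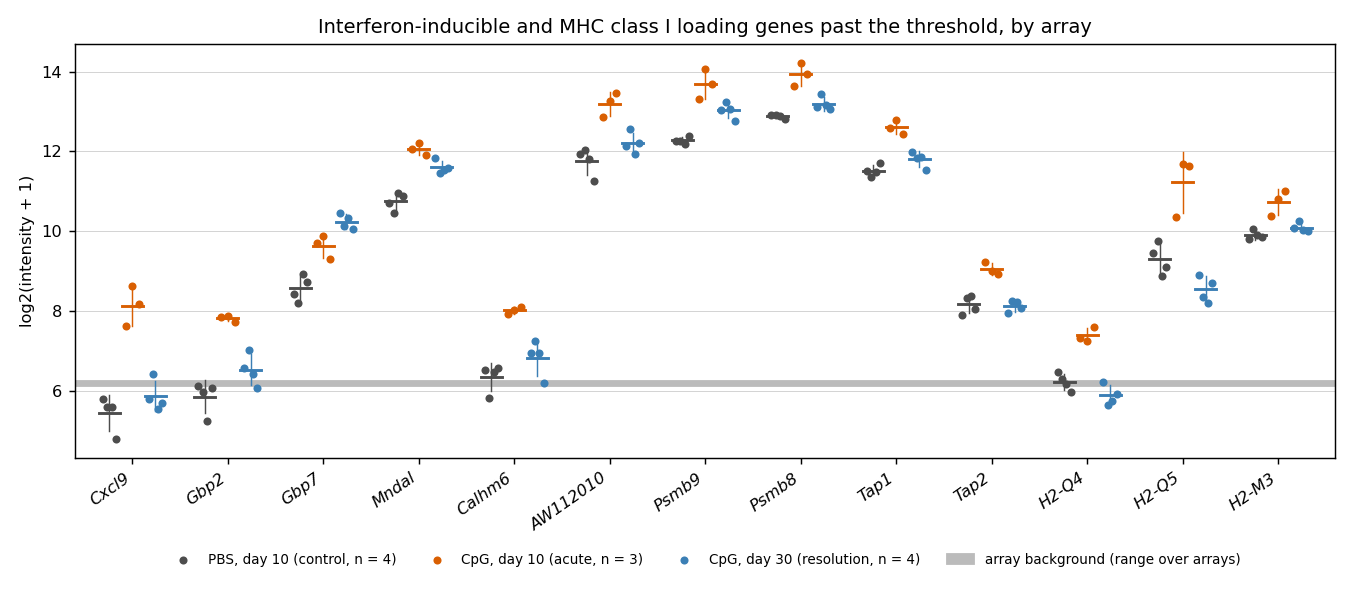
Points are the log2(intensity + 1) of single arrays for 13 interferon-inducible and MHC class I genes past the threshold, in control (grey), acute (orange) and resolution (blue), with the group mean (bar) and SD (line). The orange points lie above all grey points for every gene shown, and the grey band marks the array background of 6.12 to 6.24.

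The machinery that makes peptides and loads them on MHC class I was the list with the most genes past the threshold. Of its 21 tested members 7 rose, 0 fell and 18 had a positive difference, with a median of 0.55. All acute arrays lay above all controls for 16 of the 21 and below for 1, against 4.71% and 5.39% of all genes tested. The 7 were the immunoproteasome subunits Psmb9 and Psmb8, the peptide transporter chains Tap1 and Tap2 and the class I heavy chain genes H2-Q4, H2-Q5 and H2-M3.

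Psmb9, which replaces the caspase-like subunit of the proteasome, read 12.27, 12.25, 12.19 and 12.39 in control and 13.31, 14.07 and 13.69 in acute. The controls lay close together and the acute arrays spread more widely, all above them. It rose by 1.42 ± 0.17 (SE, adjusted p = 0.00403), 2.67-fold.

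Psmb8, the chymotrypsin-like immunosubunit, read 12.92, 12.92, 12.88 and 12.81 in control and 13.65, 14.21 and 13.95 in acute. Its arrays kept the same order among the acute mice as those of Psmb9. It rose by 1.05 ± 0.15 (SE, adjusted p = 0.0107), 2.07-fold.

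The third immunosubunit, Psmb10, differed by 0.74 ± 0.14 (SE, adjusted p = 0.0573). The proteasome activator subunits Psme1 and Psme2 differed by 0.66 ± 0.12 (SE, adjusted p = 0.0512) and 0.50 ± 0.12 (SE, adjusted p = 0.162). For these 3 genes the groups did not overlap either, and none passed the test.

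Tap1 read 11.50, 11.37, 11.49 and 11.72 in control and 12.59, 12.79 and 12.45 in acute. Tap2, with which it forms the transporter of the endoplasmic reticulum membrane, read 7.91, 8.32, 8.38 and 8.06 in control and 9.23, 8.99 and 8.93 in acute. Both transporter genes were higher on every acute array. Tap1 rose by 1.09 ± 0.14 (SE, adjusted p = 0.00809) and Tap2 by 0.88 ± 0.15 (SE, adjusted p = 0.0269).

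Among the heavy chains, the rise was largest for H2-Q5, a gene of the class Ib Qa group. H2-Q5 read 9.46, 9.76, 8.87 and 9.11 in control and 10.35, 11.68 and 11.64 in acute, a rise of 1.92 ± 0.31 (SE, adjusted p = 0.0269). H2-Q4 read 6.47, 6.30, 6.17 and 5.98 in control and 7.32, 7.26 and 7.59 in acute, a difference of 1.16 ± 0.16 (SE, adjusted p = 0.0110), at least 2.23-fold. Acute replicate 1 was more than 1 unit below the other 2 acute arrays for H2-Q5 and between them for H2-Q4.

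H2-M3, which presents formylated bacterial peptides, read 9.79, 10.06, 9.91 and 9.85 in control and 10.38, 10.81 and 11.01 in acute. The groups were separated by 0.32. It rose by 0.83 ± 0.15 (SE, adjusted p = 0.0458), 1.78-fold.

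The classical heavy chains H2-K1 and H2-D1 were among the brightest genes of the list. H2-K1 read 16.31, 16.26, 16.30 and 16.24 in control and 16.60, 16.64 and 16.69 in acute, and its difference of 0.37 ± 0.10 (SE) had adjusted p = 0.263. H2-D1 differed by 0.26 ± 0.12 (SE, adjusted p = 0.546). Neither passed, although the arrays of the groups did not overlap for either.

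H2-T23 and H2-T22, class Ib genes, differed by 0.44 and 0.55 (adjusted p = 0.308 and 0.397), and H2-T24 by -0.21 (95% interval -0.62 to 0.20). Class I heavy chains are close copies of each other, so the share of signal that belongs to each is uncertain.

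Psmb9 was past the threshold with each array left out in turn. Without acute replicate 2 the other 6 were not (adjusted p = 0.0666 to 0.228), and without acute replicate 3 Psmb8, H2-Q4, H2-Q5, Tap2 and H2-M3 were not (0.0674 to 0.161). Calls of H2-Q5, Tap2 or H2-M3 also ended without any 1 of the other arrays, at 0.0519 to 0.138.

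MHC class II genes, which the interferon-induced activator Ciita switches on, did not pass the test. Of 15 tested members 0 passed and 13 had a positive difference, with a median of 0.35, and for 8 all acute arrays lay above all controls, against 4.71% of all genes tested. H2-Eb1 read 15.69, 15.98, 15.96 and 15.61 in control and 16.37, 16.60 and 16.42 in acute, a difference of 0.66 ± 0.13 (SE, adjusted p = 0.0841). H2-Aa and H2-Ab1, the chains of the I-A molecule, differed by 0.52 and 0.47 (adjusted p = 0.217 and 0.262). Ciita was at 6.49 ± 0.12 (SD, n = 4) and 7.07 ± 0.23 (SD, n = 3), with adjusted p = 0.162. These genes are also expressed by dendritic cells, whose marker list had 12 tested members, 0 past the threshold, 10 positive and a median of 0.22. The part of such cells in these values was not tested.

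C1qa was the 1 complement gene of 16 tested that passed. It codes for a chain of C1q, the recognition unit of the classical pathway, which macrophages make. It read 7.38, 7.71, 7.81 and 8.03 in control and 9.05, 9.99 and 9.79 in acute, so that the groups were a full unit apart. It rose by 1.88 ± 0.29 (SE, adjusted p = 0.0201), 3.68-fold. The call ended without control replicate 1 (adjusted p = 0.0791) or 2 (0.0557) or acute replicate 2 (0.121) or 3 (0.0978).

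The partner chains of C1q had dim probe sets. C1qc read 4.96, 4.95, 5.14 and 4.85 in control and 5.48, 6.40 and 5.87 in acute, a difference of 0.94 ± 0.19 (SE, adjusted p = 0.0710), with 1 array above background. C1qb differed by 0.86 ± 0.22 (SE, adjusted p = 0.207), with 2 acute arrays above background. The protease gene C1ra differed by 0.57 ± 0.16 (SE, adjusted p = 0.250). The acute arrays of all 3 lay above the controls, and none passed. Without acute replicate 1 C1qc and C1qb did (adjusted p = 0.0221 and 0.0317).

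Transcripts of airway club cells, the secretory cells of the bronchioles, were higher on the 3 acute arrays. Of 31 listed markers 23 could be tested, of which 6 rose and 0 fell, with 20 positive differences and a median of 0.54. The 6 were the secretoglobins Scgb1a1 and Scgb3a1, the airway surface protein Bpifa1, the cytochrome Cyp2f2, the tetraspanin Tspan1 and the carbonyl reductase Cbr2. The log2 of the summed intensity of the list was 12.24 to 13.37 in control and 14.23 to 15.25 in acute. Its mean level was 6.07 to 6.55 in control, 6.95 to 7.43 in acute and 5.63 to 5.82 on day 30.

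Cbr2 had the smallest p of all genes tested, together with Cxcl9. It read 7.93, 8.39, 8.33 and 8.26 in control and 10.51, 9.94 and 9.92 in acute, a gap of 1.53 between the groups. It rose by 1.90 ± 0.20 (SE, adjusted p = 0.00291), 3.72-fold.

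Tspan1 read 6.57, 5.20, 6.15 and 6.40 in control, around background, and 9.04, 8.97 and 8.24 in acute. Every acute array was well clear of the controls. The difference was 2.67 ± 0.37 (SE, adjusted p = 0.0103), at least 6.01-fold.

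Scgb1a1, the main secretory protein of club cells, read 9.05, 7.88, 8.97 and 9.81 in control and 11.49, 11.06 and 10.93 in acute. Scgb3a1 read 7.90, 8.30, 7.31 and 9.71 in control and 11.39, 10.74 and 10.71 in acute. The controls spread widely for both, with control replicate 4 at the top, and still lay below every acute array. Scgb1a1 rose by 2.23 ± 0.37 (SE, adjusted p = 0.0269) and Scgb3a1 by 2.64 ± 0.44 (SE, adjusted p = 0.0269).

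Scgb3a2, a secretoglobin of the same cells, read 10.48, 10.11, 10.71 and 11.92 in control and 13.86, 13.27 and 12.70 in acute. Its difference was 2.47 ± 0.48 (SE), with adjusted p = 0.0637. It did not pass, but did without control replicate 4 (adjusted p = 0.0162).

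Bpifa1 read 8.82, 9.79, 9.77 and 10.86 in control and 13.22, 11.79 and 12.06 in acute, a rise of 2.55 ± 0.42 (SE, adjusted p = 0.0269). Cyp2f2 read 7.41, 6.90, 7.56 and 7.92 in control and 9.42, 8.59 and 8.77 in acute, a rise of 1.48 ± 0.25 (SE, adjusted p = 0.0279). Acute replicate 1 had the highest level for all 6 airway genes past the threshold. It was the highest acute array for 0 of the 6 interferon-inducible genes and for 1 of the 7 class I genes past the threshold, and the lowest for 3 and 4 of them.

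Cyp2a5 and Bpifb1, chosen after their values were seen, had differences of 2.51 ± 0.50 (SE, adjusted p = 0.0780) and 3.10 ± 0.78 (SE, adjusted p = 0.193). For Bpifb1 control replicate 4, at 9.44, lay within the acute range of 9.15 to 11.11, and without it the adjusted p was 0.00405. Of the 31 members of the list 15, among them Muc5b, Agr2 and Aldh1a1, were below background on all arrays of both groups.

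Markers of other cells of the airway and alveolus did not pass the test. Of 14 ciliated cell markers on the array 11 were below background in both groups, and of the 8 tested 0 passed, with a median of 0.10. Of 10 tested alveolar epithelial markers 0 passed, with 7 positive and a median of 0.25. Sftpa1, a surfactant protein, differed by 0.75, the tight junction gene Cldn18 by 0.99, the type I cell genes Ager by 0.40 and Pdpn by -0.60, with adjusted p between 0.378 and 0.609.

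The part of epithelial RNA in the other differences was not tested. The summed level of the club cell markers was higher on each of the 3 acute arrays than on any control array.

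Cbr2 was past the threshold with each array left out in turn, and Tspan1 with each array except acute replicate 2. Scgb1a1, Scgb3a1, Bpifa1 or Cyp2f2 lost the call without any 1 of the arrays other than control replicate 4 and resolution replicate 4, at adjusted p = 0.0506 to 0.125.

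**Figure D3:**
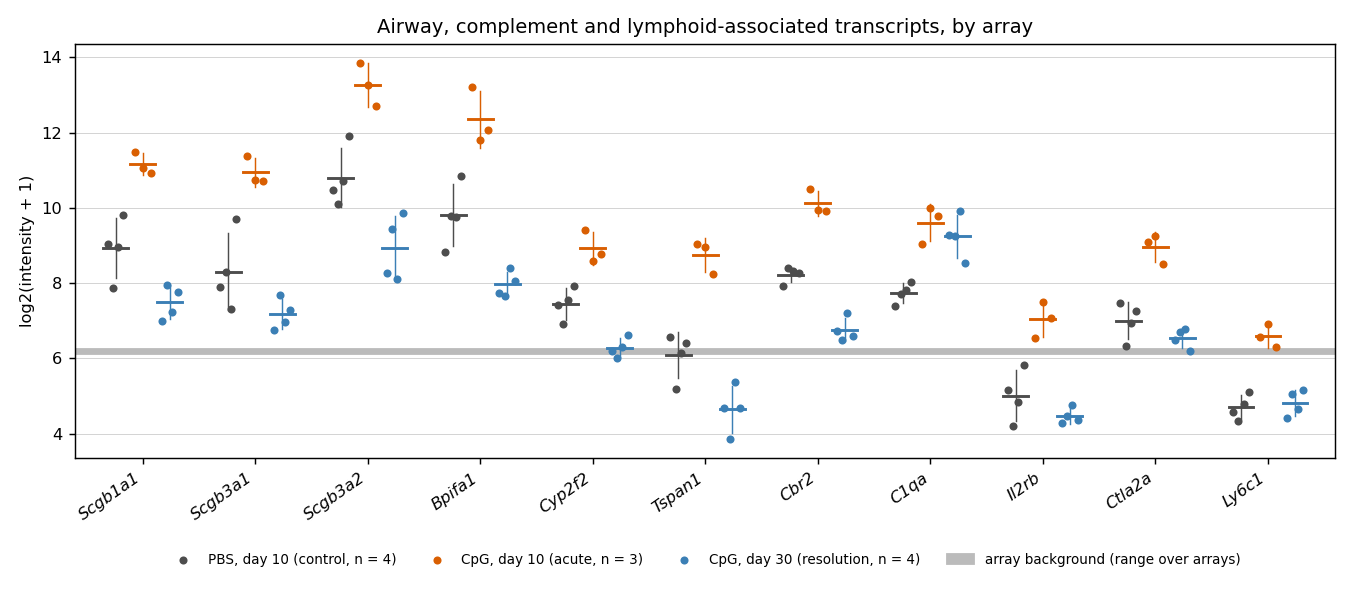
Points are the log2(intensity + 1) of single arrays for 7 airway genes, C1qa and 3 lymphoid-associated genes in control (grey), acute (orange) and resolution (blue), with the group mean (bar) and SD (line). The orange points lie above all grey points for each gene, and for Bpifa1, Cyp2f2, Cbr2 and Scgb3a2 all blue points lie below the grey ones.

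A small group of transcripts linked to lymphocytes and to Ly6C rose. Il2rb, the chain shared by the receptors for interleukins 2 and 15, read 5.17, 4.21, 4.84 and 5.82 in control, none above background, and 6.55, 7.49 and 7.09 in acute. Acute replicate 2 was the highest and every acute array was above background. The difference was 2.03 ± 0.31 (SE, adjusted p = 0.0196), at least 1.84-fold. Its 4 resolution arrays, at 4.28 to 4.75, were below background as well. Il2rb thus passed the filter on dim genes mainly through its acute arrays, and with a 60th percentile filter it was not tested.

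Ctla2a, a cysteine protease inhibitor of activated lymphocytes, read 7.47, 6.34, 6.93 and 7.27 in control and 9.10, 9.26 and 8.50 in acute. The groups lay a full unit apart. It rose by 1.95 ± 0.26 (SE, adjusted p = 0.00903), 3.87-fold.

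Ly6c1, a surface antigen of monocytes, endothelium and T cells, read 4.57, 4.35, 4.80 and 5.12 in control and 6.56, 6.92 and 6.29 in acute. The controls were below background and the acute arrays just above it, so the difference of 1.88 ± 0.22 (SE, adjusted p = 0.00403) stands for at least 1.35-fold. Ly6c1 passed the filter on dim genes through its 3 acute arrays. Ly6c2, its near-identical neighbour and a monocyte marker, read 4.21 to 4.76 in control and 4.94 to 6.09 in acute and was too dim to be tested, and the 2 genes may share signal.

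Many marker genes of lymphocytes were below background, more of the NK list than of the T cell list. Of 15 NK and cytotoxic markers on the array 12, among them Ncr1, Gzmb, Prf1 and Nkg7, were below background in both groups, and of the 6 tested 1 passed, with 4 positive and 2 negative differences. Of 15 T cell markers 8, among them Cd3e, Cd3g and Cd8a, were below background, and of the 10 tested 1 passed, with 6 positive and 4 negative. The mean level of the NK list was 4.51 to 4.82 in control and 4.99 to 5.18 in acute. The mean level of the T cell list was 5.94 to 6.48 in control and 6.36 to 6.83 in acute, with 1 acute array above all controls. In log2, the summed intensity was 8.54 to 8.92 in control and 9.38 to 9.59 in acute for the NK list, and 14.38 to 14.74 and 14.40 to 14.56 for the T cell list.

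Klrd1, the CD94 chain of NK receptors, differed by 1.08 ± 0.24 (SE, adjusted p = 0.108). The T cell receptor chain gene Cd3d differed by 0.80 ± 0.17 (SE, adjusted p = 0.102), and the NK receptor Klrk1 by 0.61 (adjusted p = 0.361). Cytokine receptor relatives of Il2rb did not pass, with Il15ra at 0.38 (adjusted p = 0.495), Il2ra at 0.20 (95% interval -0.45 to 0.85) and the cytokine Il15 at 0.05 (95% interval -0.40 to 0.51). The receptor list had 8 tested members, 5 positive and 3 negative. The lowest difference of this list and of the T cell list was that of Il7r, the interleukin 7 receptor chain, at -1.11 (95% interval -2.46 to 0.24). Its control replicate 4 read 10.31 and its other 6 arrays 6.80 to 8.32. The lowest of the NK list was that of the receptor Klrb1c, below background, at -0.61 (adjusted p = 0.443). Il7r and Klrb1c were chosen after their values were seen. The part of lymphocytes in the rise of Il2rb and Ctla2a was not tested.

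Il2rb was not past the threshold without control replicate 1 (adjusted p = 0.0630) or acute replicate 3 (0.0867), and both Il2rb and Ctla2a were not without acute replicate 2 (0.0666 to 0.108). Without any 1 acute array Ly6c1 fell out of the filter and was not tested.

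Of the other marker lists, those of monocytes (13 tested), neutrophils (10), B and plasma cells (4), endothelium (6), fibroblasts (7), eosinophils and mast cells (7) and red cells and platelets (5) had 0 genes past the threshold. In 3 of these lists 1 gene was higher on all acute arrays, and in 2 lists 1 gene was lower on all of them. Over all genes tested the shares were 4.71% and 5.39%, so these few genes are not a result about the lists. Alas2, the heme synthesis enzyme of red cell precursors, read 5.72 to 6.70 in control and 15.15, 6.99 and 9.26 in acute, so acute replicate 1 carried most of its difference of 4.36 ± 1.34 (SE, adjusted p = 0.311). The growth factor receptor Kit differed by 1.52 (adjusted p = 0.341) and lactoferrin, Ltf, by 1.24 (adjusted p = 0.132). The lower genes, chosen after their values were seen, were Vwf, the von Willebrand factor of endothelium, at -0.67 (adjusted p = 0.0941) and the neutrophil chemokine receptor Cxcr1 at -0.83 (adjusted p = 0.634). Interstitial macrophage markers had 12 tested members, of which 2 rose, C1qa and Cbr2, and 9 of the 19 on the array, among them Cx3cr1, Lyve1 and Folr2, were below background in both groups.

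**Figure D4:**
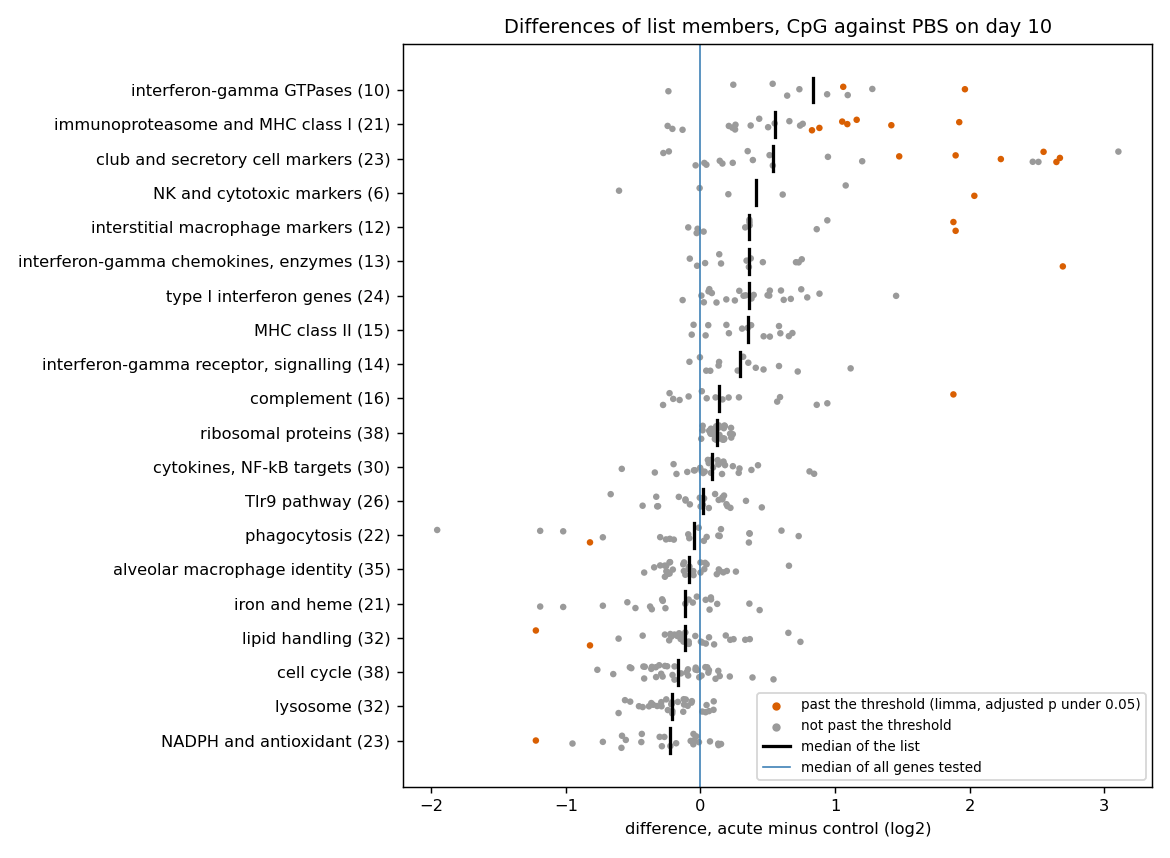
Each row is a gene list with its number of tested members, and each point is the difference of 1 member (acute minus control, log2), orange where past the threshold and grey where not, with the list median as a black bar. The medians run from 0.84 for the interferon-gamma GTPases to -0.22 for the NADPH and antioxidant genes, and the blue line is the median of all 12143 genes, -0.00.

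The 6 genes that fell were Cd36, Me1, Galnt6, Mamdc2, Gsn and Sgcb. Cd36, a scavenger receptor for oxidised lipids and fatty acids, read 14.49, 14.48, 14.25 and 14.42 in control and 13.76, 13.47 and 13.54 in acute. All acute arrays were lower, by 0.49 between the nearest arrays. It fell by 0.82 ± 0.12 (SE, adjusted p = 0.0165), 1.77-fold.

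Me1, the cytosolic malic enzyme that makes NADPH for lipid synthesis, read 7.38, 6.99, 6.41 and 7.21 in control and 6.04, 5.64 and 5.65 in acute. Its acute arrays were below background, so the difference of -1.22 ± 0.21 (SE, adjusted p = 0.0368) stands for a fall of at least 1.76-fold. Its 4 resolution arrays, at 4.71 to 5.18, were below background as well.

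Galnt6, which starts O-linked glycan chains, read 10.10, 10.20, 10.24 and 10.25 in control and 9.46, 8.60 and 9.20 in acute. The controls were nearly equal and acute replicate 2 was lowest. It fell by 1.11 ± 0.17 (SE, adjusted p = 0.0201), 2.16-fold. The other 7 tested Galnt genes had 0 past the threshold, with 3 positive and 4 negative differences between -0.48 and 0.16.

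Mamdc2, which codes for a secreted proteoglycan with MAM domains, read 8.55, 8.67, 8.38 and 8.58 in control and 7.61, 7.37 and 7.38 in acute. It fell by 1.09 ± 0.16 (SE, adjusted p = 0.0161), 2.13-fold. On day 30 its arrays stood at 8.49 to 9.25, with 3 of the 4 above every control.

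Gsn, the actin-severing protein gelsolin, read 7.67, 7.77, 7.44 and 7.66 in control and 7.05, 6.75 and 6.96 in acute. Sgcb, a sarcoglycan of the membrane, read 9.25, 9.10, 9.21 and 9.58 in control and 8.48, 8.32 and 8.64 in acute. Both were lower on every acute array. Gsn fell by 0.72 ± 0.12 (SE, adjusted p = 0.0279) and Sgcb by 0.81 ± 0.14 (SE, adjusted p = 0.0452).

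Acute replicate 2 was the lowest acute array for all 6 genes that fell. Without it 0 of the 6 kept the call (adjusted p = 0.0666 to 0.230), and the same was seen without acute replicate 3 (0.0867 to 0.145), control replicate 1 (0.0633 to 0.110) or control replicate 2 (0.0541 to 0.0948). Without any 1 of the other 7 arrays 1 to 3 of the 6 lost it, at 0.0503 to 0.136.

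Next to them stood 4 genes just outside the threshold. Colec12, a scavenger receptor with a collagen stalk, read 10.44, 10.73, 10.24 and 9.83 in control and 9.28, 9.18 and 8.94 in acute, a difference of -1.17 ± 0.22 (SE, adjusted p = 0.0512). Il1f9, an interleukin-1 family cytokine, read 8.74, 8.82, 8.05 and 10.64 in control and 6.69, 6.47 and 6.94 in acute. Its difference was -2.36 ± 0.44 (SE, adjusted p = 0.0525), and -1.84 ± 0.23 (SE, adjusted p = 0.00456) without control replicate 4. Atad2, a chromatin ATPase, and Vmn1r31, a vomeronasal receptor gene near background, differed by -0.73 and -1.14 (adjusted p = 0.0512 and 0.0531).

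The near misses on the other side include genes with a level close to background. Gpr65, a proton-sensing receptor, read 7.22, 6.86, 7.51 and 6.75 in control and 8.07, 8.37 and 7.95 in acute, a difference of 1.04 ± 0.19 (SE, adjusted p = 0.0512). Itgae, the CD103 integrin chain, was below background on all 7 arrays, and its difference of 0.55 (adjusted p = 0.0515) rests on signal that is not above background. Mptx2, a pentraxin gene, had 2 acute arrays above background and a difference of 0.79 (adjusted p = 0.0573). None of these passed. With 1 array left out, 8 of the genes with an adjusted p just above 0.05 did pass, at 0.00456 to 0.0483. They were Gpr65 and Mptx2 without control replicate 3, Psme1 without acute replicate 1, Gvin1 without acute replicate 3 or resolution replicate 4, and Atad2 without resolution replicate 2. The others were Vmn1r31 without resolution replicate 1, Colec12 without control replicate 4 or resolution replicate 2, and Il1f9 without control replicate 3 or 4.

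**Figure D5:**
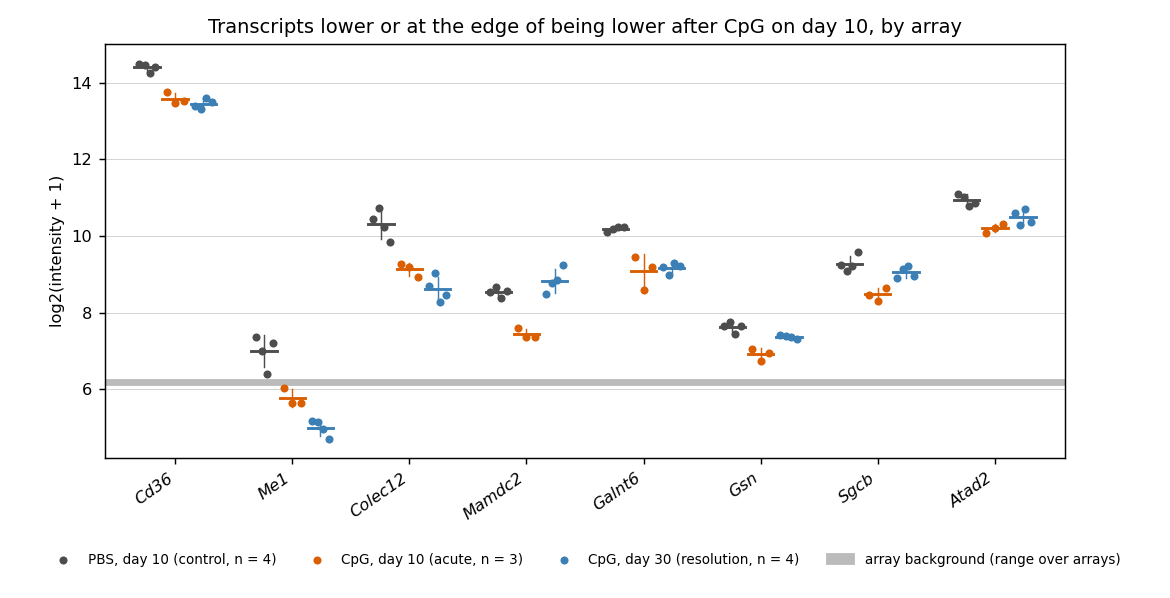
Points are the log2(intensity + 1) of single arrays for the 6 genes that fell and for Colec12 and Atad2, which did not pass, in control (grey), acute (orange) and resolution (blue), with the group mean (bar) and SD (line). All orange points lie below all grey points of the same gene, and for Me1 the orange points lie below the background band.

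The lists on lipids, antioxidants and lysosomes had negative medians and few genes past the threshold. Lipid handling had 32 tested members, of which 0 rose and 2 fell, Cd36 and Me1, with a median of -0.12. NADPH and antioxidant genes had 23 tested members, of which 1 fell, Me1, and 19 had a negative difference, with a median of -0.22. Lysosome genes had 32 tested members, of which 0 passed and 26 had a negative difference, with a median of -0.21. For 13 of these 32 all acute arrays lay below all controls, against 5.39% of all genes tested. Cell cycle genes (38 tested, 27 negative) and cholesterol synthesis genes (19 tested, 12 negative) had 0 past the threshold, with medians of -0.17 and -0.11.

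The lysosome genes with the smallest p, which did not pass, moved by small amounts. The acid lipase Lipa read 15.87, 15.91, 15.71 and 15.54 in control and 15.39, 15.25 and 15.35 in acute, a difference of -0.43 ± 0.13 (SE, adjusted p = 0.308). Npc1, which exports cholesterol from lysosomes, differed by -0.61 (adjusted p = 0.332), the protease genes Ctsa and Tpp1 by -0.37 and -0.38 (adjusted p = 0.310 and 0.341). Among antioxidant genes, Nqo1, Gclc and Hmox1 differed by -0.95, -0.58 and -0.73, with adjusted p between 0.247 and 0.443.

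Iron and heme genes had 21 tested members, of which 0 passed, with 14 negative and a median of -0.11. Slc40a1, the iron exporter ferroportin, read 9.67, 9.50, 9.08 and 8.42 in control and 7.74, 8.33 and 8.37 in acute, a difference of -1.02 ± 0.29 (SE, adjusted p = 0.280). Slc11a1, the metal transporter of phagosomes, differed by -1.19 ± 0.39 (SE, adjusted p = 0.341), and its arrays overlapped between the groups. The heme transporter Slc48a1 differed by -0.37 (adjusted p = 0.429). Cd163, the haemoglobin scavenger receptor that marks activated macrophages in MAS, was below background on all 7 arrays. Phagocytosis genes had 22 tested members with 1 fall, Cd36, and a median of -0.05.

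Inflammatory cytokines and their NF-kB control had 0 of 30 tested members past the threshold, 22 positive and a median of 0.09. Il1b read 14.98, 14.77, 14.98 and 14.41 in control and 15.51, 15.84 and 15.45 in acute, a difference of 0.81 ± 0.20 (SE, adjusted p = 0.186). Cd83, a marker of activation, read 8.17, 8.23, 8.25 and 7.60 in control and 8.85, 9.16 and 8.71 in acute, a difference of 0.84 ± 0.17 (SE, adjusted p = 0.0796). The NF-kB subunit Rel differed by 0.38 (adjusted p = 0.443). The groups did not overlap for these 3 genes.

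The 95% intervals of the difference ran from -0.27 to 0.75 for Il6, from -0.58 to 0.18 for Tnf, from -0.15 to 0.30 for Il18 and from -0.28 to 0.56 for its binding protein Il18bp. For the checkpoint ligand Cd274 the interval was -0.15 to 0.45. Il10 was below background on all 7 arrays, Nos2 was too dim to be tested, and Il12b was not analysed here. Arg1 differed by -1.98 with an interval of -4.50 to 0.55, since control replicate 4 read 11.52 and the other 6 arrays 4.88 to 6.67.

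The Tlr9 pathway, through which CpG is sensed, had 26 tested members, of which 0 passed, with 16 positive and a median of 0.02, which was -0.02 after scaling to a common median. For 0 of them all acute arrays lay above all controls and for 3 all lay below, against 4.71% and 5.39% of all genes tested. Tlr9 was too dim to be tested. The adaptor Myd88 differed by 0.01 (95% interval -0.29 to 0.32). Tollip, an inhibitor of Toll-like receptor signalling, read 13.34, 13.27, 13.01 and 13.20 in control and 12.81, 12.71 and 12.81 in acute, a difference of -0.43 ± 0.11 (SE, adjusted p = 0.232).

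Identity genes of resident alveolar macrophages had 35 tested members, of which 0 passed, with 25 negative and a median of -0.09. The difference of Siglecf was -0.00 (95% interval -0.33 to 0.33), that of the scavenger receptor Marco -0.30 (-0.86 to 0.26) and that of the master regulator Pparg -0.09 (-0.36 to 0.19). The recruited-cell gene Itgam differed by -0.20 with a wide interval of -1.40 to 0.99, since control replicate 4 read 8.72 and the other controls 5.70 to 6.39. Ccr2, the receptor of recruited monocytes, was below background on all 7 arrays.

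Ribosomal protein genes, a set of bright housekeeping transcripts, had 38 of 38 tested members on the positive side, with 0 past the threshold and a median of 0.12 (0.09 after scaling to a common median). For 10 of them all acute arrays lay above all controls, against 4.71% of all genes tested.

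On day 30 the genes that had risen stood at different levels. All 4 resolution arrays were below every acute array for 21 of the 23 risen genes, the others being Gbp7 and C1qa. For 5 genes, namely Mndal, Psmb9, Psmb8, Gbp7 and C1qa, all 4 were above every control, and for 3 genes, Cbr2, Bpifa1 and Cyp2f2, all 4 were below every control. Psmb9 was at 13.03 ± 0.20 (SD, n = 4) on day 30, between its control and acute means. Of the 6 fallen genes Cd36, Galnt6, Gsn and Me1 had all 4 resolution arrays below every control, with Cd36 at 13.31 to 13.59. These are levels from animals lavaged on another day and are given without a test.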

How the data were processed

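Trizol was used for the total RNA and a GeneChip 3' IVT Pico kit for the biotin-labelled targets, per the labels' protocols. Per the submitters' processing notes the authors summarised the arrays in Affymetrix Expression Console, with no version or algorithm named there. The authors deposited linear intensity values. They were used as log2(value + 1) without further scaling. Of 28846 probe sets 31 were Affymetrix controls, 19572 had 1 gene symbol in the platform annotation, 0 several and 9243 none (5222 of them negative controls), and of 19505 symbols 55 had several probe sets, of which the one with the highest mean was used. Genes with at least 3 of 11 arrays above that array's 40th percentile were tested. The groups were those of the labels. A model with a mean for each of the 3 groups was fitted over the 11 arrays with limma 3.58.1 (R 4.3.3), leaving 8 residual and adding 4.48 prior degrees of freedom, and p-values were two-sided with Benjamini-Hochberg adjustment and a threshold of 0.05. Errors are moderated SE or SD. A fold is "at least" where the lower group's mean was within 1 SD of its mean background, and is then taken against that background or, if higher, that mean. The number of arrays limits the precision. The fit was tested on simulated data for this comparison (12143 genes), with 67 changes of 1.5-fold, 67 of 2-fold and 66 of 4-fold. It recovered 25.4%, 76.1% and 97.0% of them, with 4 false calls among 136. The data gave 29 calls. The adjustment is stricter where fewer genes change, so these rates can overstate the recovery in the data.

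The genes named are every gene past the threshold, the 10 with the smallest adjusted p from 0.05 to 0.10, up to 4 members of each list, close relatives of genes past the threshold, and a fixed panel including Ifng, Tlr9, Il6 and Siglecf, part of which is not reported here. Cyp2a5 and Bpifb1 fall outside this rule. They, and also Il7r, Klrb1c, Vwf and Cxcr1, were chosen after their values were seen. Of 872 genes in 26 pathway and 14 marker lists 777 were on the array and 630 tested. The members and lists were chosen with earlier results of these data known. Replicate numbers shared by the groups were checked for pairing (correlations of deviations -0.124, 0.008 and -0.120) and not used. Alternatives covered scaling, pseudocount, filter, probe sets, weights, trend, a replicate block and each array left out. Promoters came from RefSeq tables of GRCm38.p6.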

Additional observations from a re-analysis of the deposited data

Results flagged for a closer look

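For 3 genes 1 of the 4 control arrays lay far from the other 3 by Dixon's test, a pattern that chance gives in about 1 of 20 groups, and 95 genes named in the text were above background and checked. Calhm6 read 5.83 on control replicate 2, against a median of 6.54 on the other controls. Cd83 read 7.60 on control replicate 4, against 8.23, and Siglecf read 14.51 on control replicate 4, against 15.07. For Cbr2, Bpifa1 and Cyp2f2 the acute arrays all lay above the controls and the day 30 arrays all below them. Their day 30 differences from control were -1.47, -1.84 and -1.17, beside acute differences of 1.90, 2.55 and 1.48. The difference between these effects was not tested. Among 1506 tested transcript clusters that carry no gene symbol, 9 were higher and 2 lower in acute by limma with Benjamini-Hochberg adjustment.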

How the results depend on the processing

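Against 29 genes past the threshold (23 higher, 6 lower), the 7 arrays of day 10 alone gave 16 (13 and 3), limma's trend option 51 (38 and 13), array quality weights 54 (39 and 15) and a threshold of 0.10 gave 59 (43 and 16). Quantile normalization gave 32 genes (29 and 3). A replicate block gave 25 genes, 20 of them among the 29, and the numbers shared by the groups did not pair the arrays. With each array left out in turn there were 5 to 29 genes, of which 5 to 23 were higher and 0 to 8 lower. Genes with all acute arrays above all controls numbered 572, and 367 after scaling to a common median, 865 after quantile normalization and 866 with no filter, and 567 to 1411 with an array left out. Those with all acute arrays below numbered 655, and 798, 462 and 810 under the same 3 settings, and 652 to 1174 with an array left out.

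Cbr2, Cxcl9, Mndal, Gbp2 and Psmb9 were past the threshold in 21 of 21 alternatives. Ly6c1 was past it in the 17 that tested it, which is no further support. It passed the filter on dim genes only through its 3 acute arrays and was not tested without any 1 of them. Differences near 0 changed sign. Myd88 was at -0.0099 with the replicate block, -0.023 with median scaling and -0.0027 with array weights, Siglecf at 0.026 with quantile normalization, and Itgam at 0.14 with the replicate block and 0.10 with array weights. With an array left out the ranges were -0.17 to 0.42 for Il2ra, -0.12 to 0.21 for Il15, -0.0046 to 0.20 for Ifngr1, -0.080 to 0.079 for Myd88, -0.058 to 0.26 for Il10, -0.085 to 0.32 for Il18bp, -0.14 to 0.054 for Siglecf and -0.55 to 0.45 for Itgam. What caused these changes was not tested.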
